A study of Mus musculus with 18 samples.

Results

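The regions described here are 376 sites bound by the transcription factor PAX5, but not by EBF1, whose centre lies within 1000 bp of a transcription start site in the annotation deposited by the authors. They were taken from 5033 PAX5-only sites, of which they make up 7.47%, and from 14377 bound regions in all (EBF1-only, PAX5-only and shared). Accessible chromatin was measured at these regions by ATAC-seq, in which a transposase cuts and tags open DNA, in pro-B cells, and RNA-seq was done on the same kind of cells. There were 3 libraries per genotype and assay. The genotypes were wild type (WT), Ebf1-/- and Pax5-/-, all on the C57BL6/J strain background. Cells of every genotype came from fetal liver and were expanded on OP9 stromal cells, a mouse bone marrow stromal line, in medium with interleukin-7 and the ligands of KIT and FLT3. The fetuses themselves lacked the gene, so the knockout cells had developed and grown without it. The labels do not say whether the libraries of a genotype came from separate fetuses, so a p-value here reflects only how much these libraries vary, which may be technical variation.

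PAX5 is a paired-domain transcription factor that commits lymphoid progenitors to the B lineage, by activating B-cell genes and by silencing genes of other lineages. EBF1 acts earlier in the same pathway and activates Pax5. Start sites within CpG-rich DNA are open in most cell types, whereas CpG-poor promoters and distal sites are more often open only in the cells that use them.

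The sites were annotated mostly as promoters (258), with 90 in introns, 11 in 5′ UTRs, 7 in exons, 7 at transcript ends and 3 in non-coding exons, and 213 of 376 lay upstream of the start site. They named 372 genes, 3 of which (Chchd5, Cmip and Gm15471) had 2 sites each. At the edge of the distance rule, the site at Snx2 (999 bp) held a mean of 24.7 tags per 10 M library tags in WT, 4.07 in Ebf1-/- and 3.97 in Pax5-/-. The nearest site outside it, at Slc17a4 (1013 bp), held 19.1, 3.86 and 2.72. In the 249 bp of each site (build mm10), the PAX5 core GCGTGAC or GCATGAC, searched on both strands, was found in 59 of 376 sites (15.7%). The share was 13.9% at intronic and 11.6% at intergenic PAX5-only sites, 4.41% at EBF1-only sites near start sites and 7.09% over all scanned regions. The form GCGTGAC was in 11.7% of the sites against 3.03% of all regions, and GCATGAC in 3.99% against 4.15%. At intronic and intergenic PAX5-only sites, GCGTGAC was in 5.77% and 4.71%, and GCATGAC in 8.4% and 7.07%. Of the 62 core matches at the sites, 38 lay within 25 bp of the centre. The windows of 29 bases below, read from the RefSeq mm10 genome on the strand of the core, hold the core in capitals. The first set is from sites whose accessibility was lower in Pax5-/- than in WT under both scalings used below, and the second from strong sites whose calls differed between the scalings.
Flrt1: agagcgctcttGCGTGACagagctgagag
Cdkl1: gggcataccgaGCGTGACggctgcctggc
Map4k2: ctactgttcagGCGTGACttgggctcctg
Stk40: cgcccagcccaGCGTGACtaccctcttcc
A630076J17Rik: gtgctcaccatGCATGACaagatcctaac
Ppp1r16b: catcaacctagGCATGACcacttccttcc
Cap1: tgggcctcgggGCGTGACcaaccgtggac
Fbxl12: caacccagaagGCGTGACtctaggaaaac
Tmem33: ggtttccggagGCATGACgggaaatgcag

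The windows lie at chr19:7105644-7105672, chr12:69791360-69791388, chr19:6340430-6340458, chr4:126104918-126104946 and chr3:107231397-107231425 in the first set, with Map4k2 and Stk40 on the minus strand. Those of the second lie at chr2:158666573-158666601, chr4:122886107-122886135, chr9:20642695-20642723 and chr5:67260602-67260630, with Ppp1r16b and Fbxl12 on the plus strand. These 9 sites were picked for display after their values were seen.

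Other motifs were searched in the same windows, on both strands. The NFY motif CCAAT was in 26.1% of the sites and 23.2% of all regions, and the RUNX motif AACCACA in 10.9% and 13.6%. The ETS motif CCGGAAG was in 9.57% and 4.59%, and in 16.2% of EBF1-only and 10.3% of shared sites near start sites. The SP/KLF motif GGGCGG was in 12.8% of the sites but in 42.2% of EBF1-only sites near start sites. The EBF1 palindrome (TCCC and GGGA with any 2 bases between) was in 2 sites (0.532%), against 16.2% of all regions. The octamer ATTTGCAT was in 2.66% and 2.92%, the CRE motif TGACGTCA in 1.06% and 0.612%, and the NRF1 palindrome in none of the sites and 0.153% of all regions. Median GC content was 53.4% and the median number of CpG per window was 8, against 50.2% and 3 over all regions and 59.8% and 15 at EBF1-only sites near start sites. A match is a description of the letters only.

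Sequences outside every annotated exon are shown for 5 sites to which the results return, on the strand of the gene. Capitals mark any match to the motifs above on either strand, so that GTCACGC is a PAX5 core, ATTGG an NFY and TGTGGTT a RUNX match read from the other strand.
Rag2: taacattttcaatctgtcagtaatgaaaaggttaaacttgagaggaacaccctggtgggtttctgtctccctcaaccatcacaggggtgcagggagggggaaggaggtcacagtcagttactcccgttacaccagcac
Siglecg: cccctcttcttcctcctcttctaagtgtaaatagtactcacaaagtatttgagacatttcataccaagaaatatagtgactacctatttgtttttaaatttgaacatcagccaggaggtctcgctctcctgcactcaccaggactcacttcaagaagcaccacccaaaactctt
Pou2f1: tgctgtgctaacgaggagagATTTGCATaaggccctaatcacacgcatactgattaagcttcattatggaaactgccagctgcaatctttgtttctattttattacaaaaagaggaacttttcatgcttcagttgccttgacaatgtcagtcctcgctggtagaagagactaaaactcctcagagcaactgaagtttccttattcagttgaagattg
Erg: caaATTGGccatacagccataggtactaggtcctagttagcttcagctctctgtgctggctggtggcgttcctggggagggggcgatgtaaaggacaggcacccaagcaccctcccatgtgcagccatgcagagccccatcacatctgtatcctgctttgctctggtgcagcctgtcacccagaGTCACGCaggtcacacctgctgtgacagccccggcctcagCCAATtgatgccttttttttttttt
Eef2k: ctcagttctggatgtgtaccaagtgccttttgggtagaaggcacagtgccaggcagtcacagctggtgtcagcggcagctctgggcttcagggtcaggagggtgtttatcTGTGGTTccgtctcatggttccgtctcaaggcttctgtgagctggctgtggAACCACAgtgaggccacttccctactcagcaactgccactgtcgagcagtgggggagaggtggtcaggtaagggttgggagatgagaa

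They lie at chr2:101624574-101624711 (Rag2), chr7:43408018-43408191 (Siglecg), chr1:165935012-165935228 (Pou2f1), chr16:95459514-95459762 (Erg) and chr7:120851651-120851899 (Eef2k, intronic), with Pou2f1 and Erg on the minus strand and the others on the plus strand. The Pou2f1 promoter holds an octamer, the motif to which the encoded factor OCT1 binds. The Rag2 and Siglecg stretches hold no match to any of the motifs searched.

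ATAC libraries held 15.31 to 38.62 M tags and RNA libraries 27.29 to 89.09 M mapped reads. Bound regions held 1.52% to 2.31% of the tags of a WT library, 0.930% to 1.11% of an Ebf1-/- library and 0.825% to 1.02% of a Pax5-/- library. In the authors' scaling, to 10 M tags (M, mega) per library, the median bound region was 0.78 lower in Ebf1-/- and 0.75 lower in Pax5-/- than in WT, on the log2(signal + 1) scale used throughout. No unbound regions were used here against which to set this shift. Differences are given below relative to it ("relative difference": the log2 difference at a site minus the median over all 14365 regions tested), together with the calls under the authors' scaling and under TMM scaling, which centres the libraries on the bound regions. A site is called where the adjusted p from limma, over all regions tested, is under 0.05, and all 376 sites were tested. Each p tests the log2 difference before the median is subtracted, not the relative difference printed beside it. The same holds for RNA. A ± after a log2 difference is the standard error from limma. After a signal or RNA value it is the SD over the libraries of a genotype. The summed RNA of 14 pro-B markers was 28457 to 29693 reads per 10 M in the WT libraries. It was 4206 to 4261 in Ebf1-/- and 8702 to 12609 in Pax5-/-. Most of the Ebf1-/- sum came from Il7r (2079 ± 115, against 1822 ± 175 in WT) and from Ebf1 itself (1465 ± 131). Igll1 was at 9.06 ± 1.51 in Ebf1-/-, against 7560 ± 375 in WT, and Vpreb3 was at 0 in Ebf1-/-. Of the targeted genes, Pax5 RNA was 1314, 1629 and 1619 in WT, 8.53, 15 and 15.7 in Ebf1-/- and 99.1, 98.6 and 129 in Pax5-/-. Ebf1 RNA was 3252, 4200 and 4454 in WT, 1329, 1556 and 1661 in Pax5-/- and still 1446, 1345 and 1605 in Ebf1-/-. Values per gene do not show which part of a gene was deleted.

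At the median site the signal was 9.95 tags per 10 M in WT (range over sites 1.09 to 68.4), 6.65 in Ebf1-/- and 5.13 in Pax5-/-. Summed over the 376 sites it was 6379, 4284 and 5284 in the WT libraries, 3388, 3939 and 4309 in Ebf1-/- and 3136, 2678 and 2465 in Pax5-/-. Every Pax5-/- sum lay below every Ebf1-/- sum, and WT library #2 lay just below Ebf1-/- library #3. As a share of the tags in bound regions, the sites held 2.71% to 2.82% in WT, 2.99% to 3.06% in Pax5-/- and 3.64% to 3.90% in Ebf1-/-, with no overlap between genotypes.

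**Figure D1:**
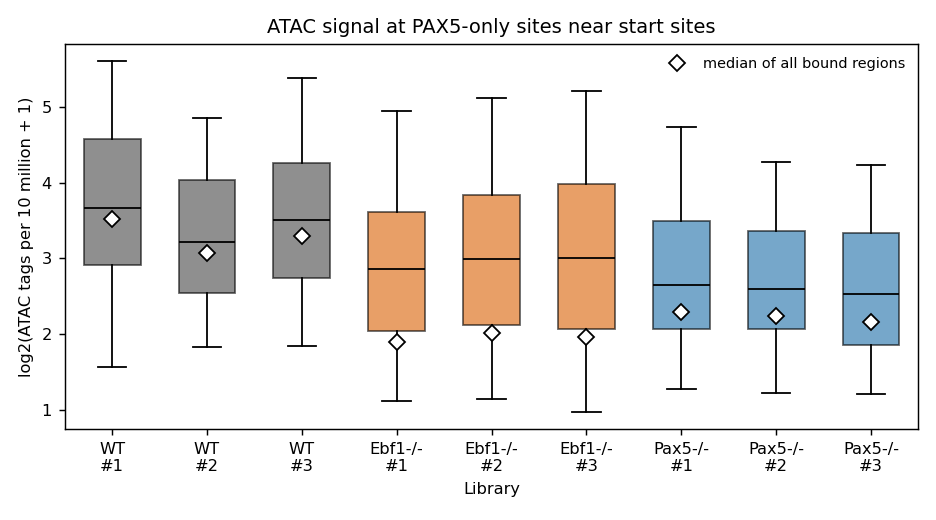
ATAC signal at the 376 sites in each of the 9 libraries, as log2(tags per 10 M + 1): boxes span the quartiles with the median as a line, whiskers the 5th to 95th percentiles, and diamonds the median of all 14377 bound regions. The site medians lie between 8.26 and 11.8 tags per 10 M in WT, 6.23 and 7.04 in Ebf1-/- and 4.78 and 5.29 in Pax5-/-, and the gap to the diamond is widest in Ebf1-/-.

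Without PAX5, 201 of 376 sites (53.5%) were called lower than in WT and 4 higher under the authors' scaling, close to the 51.5% and 2.11% of all regions tested. Under TMM scaling 54 were lower (14.4%, against 21.3% of all regions) and 49 higher (13% of sites, against 13.8%). The median relative difference over the sites was 0.01, so that as a group they moved as the median bound region did. PAX5-only sites in introns and between genes, far from start sites, had medians of -0.32 and -0.35, and 62.3% and 62.1% of them were called lower. The 54 sites lower under both scalings had a median signal of 18.2 in WT and 3.06 in Pax5-/-. The 4 sites called higher were near Pcolce2, Gabarapl2, Ccdc30 and Gm10432 and the first 3 are named after their values were seen. Without Pax5-/- library #3 the count was 2. All 3 Pax5-/- libraries lay below all 3 WT libraries at 207 sites (55.1%, against 54.3% of all regions) and above them at 7 (1.86%, against 2.96%).

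Without EBF1, the same sites kept more of their signal relative to other bound regions. Of 376 sites, 131 (34.8%) were called lower than in WT and 16 (4.26%) higher, against 51.1% and 3.28% of all regions. Under TMM scaling the balance turned to 38 lower (10.1%, against 29.7%) and 128 higher (34% of sites, against 20.4%). The median relative difference was 0.38 under the authors' scaling and 0.47 with TMM, and it was 0.47 at EBF1-only sites near start sites and -0.20 at shared sites near start sites. Without Ebf1-/- library #3 the count of higher calls under the authors' scaling was 9. The Ebf1-/- libraries lay wholly below WT at 148 sites (39.4%, against 54.7% of all regions) and wholly above at 23 (6.12%, against 4.42%).

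Set against each other, the knockouts differed at the sites mostly in 1 direction. In Ebf1-/- 59 of 376 sites (15.7%) were higher than in Pax5-/- and 7 (1.86%) lower, against 9.06% and 12.6% of all regions. With TMM scaling the counts were 91 and 10, against 12.9% and 15.5%. Signal in all 3 Ebf1-/- libraries exceeded that in all 3 Pax5-/- libraries at 115 sites (30.6%, against 16.7% of all regions), and the reverse held at 17 (4.52%, against 19.2%). The number of higher calls was 31 without Ebf1-/- library #2, 25 without #3, 37 without Pax5-/- library #2 and 28 without #3, each above the number of lower calls. PAX5-only sites in introns and between genes also had more higher calls (16.1% and 14.8%) than lower ones (2.59% and 2.5%). The comparisons with WT share its libraries.

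**Figure D2:**
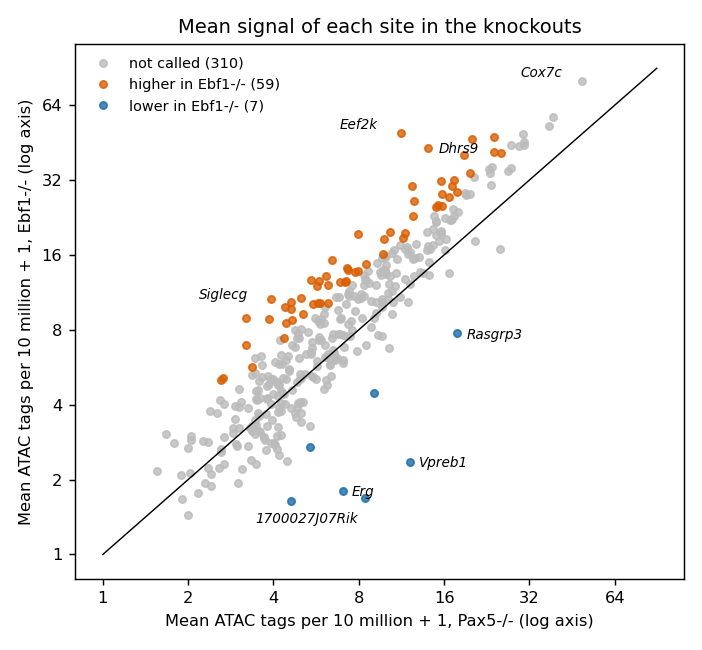
Mean ATAC signal of each of the 376 sites in Pax5-/- (x axis) and Ebf1-/- (y axis), as tags per 10 M + 1 on log axes, n = 3 libraries each, with the line of equal signal. The 59 sites higher in Ebf1-/- lie above the line and the 7 lower ones below it.

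The sites at genes of the pre-B-cell receptor pathway and at known PAX5 target genes included several of those that lost signal in both knockouts. Of 8 sites at genes on the pre-B-cell receptor list, 7 were called lower and none higher in Pax5-/- under the authors' scaling, and 4 lower with TMM, where 51.5% and 21.3% of all regions were lower. In Ebf1-/- 6 were lower and 1 higher, with 4 lower and 2 higher under TMM. Of all regions 51.1% and 29.7% were lower there, and 3.28% and 20.4% higher. Of 7 sites at genes on the list of PAX5-activated genes, 7 were lower in Pax5-/- and 5 in Ebf1-/-. Under TMM 4 were lower in each, and 1 was higher in Ebf1-/-. None of the 36 genes on the list of PAX5-repressed genes had a site among the 376. The lists were chosen with earlier results of these data known.

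Blnk encodes the adaptor that couples the pre-B-cell receptor to downstream kinases. Its site in the 5′ UTR (chr19:40994096-40994344) had 13.7, 16.8 and 14 tags in WT, 1.56, 2.42 and 3.84 in Ebf1-/- and 3.88, 2.92 and 0.87 tags in Pax5-/-, without overlap with WT. Its relative difference was -1.51 ± 0.34 in Pax5-/- (limma adjusted p = 1.7e-08, and 5.3e-04 with TMM) and -1.40 ± 0.34 in Ebf1-/- (3.2e-08, and 5.6e-04 with TMM). RNA of Blnk fell from 1151 ± 167 reads per 10 M in WT to 0.99 ± 0.34 in Ebf1-/- and 0.48 ± 0.578 in Pax5-/- (SD, n = 3).

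The promoter of Siglecg, which encodes an inhibitory lectin of B cells, separated the knockouts. Signal was 20.9, 9.97 and 16.3 in WT, 6.62, 9.08 and 13.1 in Ebf1-/- and 3.17, 3.45 and 2.17 in Pax5-/-, so that Ebf1-/- overlapped WT and lay above every Pax5-/- library. It was 1.42 ± 0.30 higher in Ebf1-/- than in Pax5-/- relative to the median region (limma adjusted p = 1.5e-04, and 4.0e-05 with TMM). RNA was low in both, at 2.83 ± 1.74 and 0.877 ± 0.571 reads per 10 M against 606 ± 35 in WT.

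RAG2 is a subunit of the recombinase that assembles antigen receptor genes. The site at the Rag2 promoter had 22.9, 13.7 and 20.2 tags in WT, 8.18, 11.2 and 8 in Ebf1-/- and 6, 4.51 and 3.04 in Pax5-/-, and the 3 genotypes did not overlap. It was 0.92 ± 0.28 higher in Ebf1-/- than in Pax5-/- (adjusted p = 0.015, and 0.0042 with TMM). Rag2 RNA followed the same order, at 682 ± 184, 456 ± 14.6 and 148 ± 69.7 reads per 10 M. For RNA in Ebf1-/- against WT the limma adjusted p was 0.085, and 0.028 with the replicate number as a block. It was 0.034 without Pax5-/- library #1 and 0.013 without #3. The site in the intron of Rag1, the partner subunit, was weaker (6.6 ± 0.11 in WT) and nearly equal in Ebf1-/- (2.23 ± 0.27) and Pax5-/- (2.32 ± 1.13).

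The sites at Cd72 and Blk also had more signal in Ebf1-/- than in Pax5-/-. CD72 is a co-receptor that dampens B-cell receptor signals, and its promoter had 14.7 ± 0.87, 13.2 ± 4.70 and 6.28 ± 0.95 tags in WT, Ebf1-/- and Pax5-/- (SD, n = 3; Ebf1-/- against Pax5-/-, limma adjusted p = 0.0095). Cd72 RNA was 47.8 ± 4.80 in WT, 147 ± 9.89 in Ebf1-/- and 42.2 ± 9.19 in Pax5-/-, highest in Ebf1-/-, whereas the site was not. Blk encodes a kinase of the SRC family. Its promoter signal was 4.78 ± 1.59 in WT and 8.71 ± 2.17 in Ebf1-/- (limma adjusted p = 0.038, and 2.7e-05 with TMM). Under the authors' scaling that call was lost without WT library #2 (adjusted p = 0.14) or #3 (0.093) or Ebf1-/- library #2 (0.15) or #3 (0.12), with relative differences of 1.42 to 1.72 over the libraries left out. Blk RNA fell from 36.1 ± 6.95 to 0.444 ± 0.218 reads per 10 M. Bst1, a surface enzyme of B-cell precursors, had 10.9 ± 1.95, 5.97 ± 2.42 and 3.63 ± 0.52 tags, and the knockouts were not called different, although their libraries did not overlap (limma adjusted p = 0.22).

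At 7 sites the signal was lower in Ebf1-/- than in Pax5-/-, and they include the surrogate light chain gene Vpreb1 and Erg. The promoter site of Vpreb1 (chr16:16869230-16869478) had 24.2, 13.1 and 17.9 tags in WT, 1.56, 0.61 and 1.92 in Ebf1-/- and 17.6, 8.22 and 7.38 in Pax5-/-. Only Ebf1-/- lay apart: 2 Pax5-/- libraries were below the WT range and 1 within it. The relative difference in Ebf1-/- against WT was -2.26 ± 0.31 (limma adjusted p = 1.2e-14), and against Pax5-/- -2.28 ± 0.31 (4.1e-09). In Pax5-/- against WT it was 0.01 ± 0.31. Vpreb1 RNA was 1306 ± 152 reads per 10 M in WT, 1.73 ± 1.65 in Ebf1-/- and 1007 ± 361 in Pax5-/-.

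Erg encodes an ETS factor active in haematopoietic stem cells and early B cells. Its site, with a PAX5 core 63 bp from the centre and a peak score of 251.2 (the median of the sites was 47, the authors' own score), had 22.2, 14 and 15 tags in WT, 1.17, 0.61 and 0.64 in Ebf1-/- and 3.53, 7.16 and 7.38 in Pax5-/-. The 3 genotypes did not overlap. The call in Pax5-/- against WT (adjusted p = 1.9e-04) was lost with TMM (0.20), quantile normalization (0.35), edgeR (0.17) and DESeq2 (0.28). RNA of Erg was 2155 ± 154, 4.34 ± 1.42 and 1336 ± 315 reads per 10 M in the same order, so site and RNA kept 1 order. The other 5 sites were near Rasgrp3, 1700027J07Rik, Pcolce2, Fam129c and Acy3, of which the last 3 were named after their values were seen. At the Fam129c promoter Pax5-/- (8.02 ± 0.98) was close to WT (8.35 ± 0.13) and Ebf1-/- lower (3.47 ± 1.00). At the Pcolce2 promoter Pax5-/- was the highest, with 7.76, 6.63 and 7.82 tags against 1.96, 2.56 and 3.11 in WT.

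Rasgrp3, which encodes a RAS guanine nucleotide exchange factor activated downstream of the B-cell receptor, had one of the 4 highest WT signals, and its site and RNA went in opposite directions in Pax5-/-. Signal was 70.6, 30.8 and 60.3 in WT, 4.28, 6.35 and 9.60 in Ebf1-/- and 25.8, 12.5 and 12.2 in Pax5-/-, with no overlap. The relative difference was -0.88 ± 0.28 in Pax5-/- (limma adjusted p = 7.7e-07, and 0.014 with TMM) and -2.02 ± 0.28 in Ebf1-/-. Rasgrp3 RNA, however, was 65.1, 76.8 and 81.7 reads per 10 M in WT, 6.88, 2.93 and 2.93 in Ebf1-/- and 2038, 1711 and 1914 in Pax5-/-. Relative to the median gene it rose by 4.37 ± 0.24 in Pax5-/- (adjusted p = 3.3e-10) and fell by 4.23 ± 0.24 in Ebf1-/- (1.4e-09). The annotation names the gene nearest to a site, which need not be the gene it controls.

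The other genes on the B-lineage list with a site were Pou2f1, Runx1 and Pax5 itself. The Pou2f1 promoter had 33.3, 19.1 and 25.9 tags in WT, 4.28, 4.54 and 5.12 in Ebf1-/- and 2.82, 2.92 and 1.30 in Pax5-/- (relative difference -2.28 ± 0.30 in Pax5-/-, limma adjusted p = 7.1e-15). Pou2f1 RNA was 1719 ± 154, 1629 ± 200 and 1575 ± 85.1 reads per 10 M, and neither knockout was called different from WT under the authors' scaling. With TMM both were called lower (adjusted p = 0.0049 in Pax5-/- and 0.0033 in Ebf1-/-). The Runx1 site in a 5′ UTR had 17.9 ± 4.33, 9.22 ± 2.63 and 4.75 ± 1.26 tags, while Runx1 RNA was 2159 ± 176, 2246 ± 68.1 and 3531 ± 522. Runx1 RNA was called higher in Pax5-/- under both scalings (adjusted p = 7.5e-04 under the authors') and lower in Ebf1-/- with TMM alone (0.012). The site 272 bp upstream of the Pax5 start site was weak, at 5.90 ± 1.51, 1.80 ± 1.41 and 2.92 ± 1.66 tags, and its calls against WT were lost with TMM (adjusted p = 0.78 in Pax5-/- and 0.11 in Ebf1-/-). The call in Pax5-/- was also lost without WT library #1 (0.073) or #2 (0.12) or Pax5-/- library #2 (0.34).

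Tnfrsf19, a TNF receptor family member, had 10.1 ± 2.58 tags in WT, 2.28 ± 1.64 in Ebf1-/- and 4.36 ± 0.81 in Pax5-/-, and its RNA was 885 ± 64, 7.85 ± 2.79 and 37.2 ± 8.15. At the 2 genes of other lineages with a site, RNA was higher in both knockouts. The Tyrobp site, at -980 bp from the start site of the gene of a myeloid and NK-cell adaptor, had 12.4 ± 3.95, 13.8 ± 3.85 and 8.27 ± 1.65 tags. Its RNA was 0.633 ± 0.072 in WT, 835 ± 61 in Ebf1-/- and 121 ± 22 in Pax5-/-. At Zap70, which encodes a kinase of the T-cell receptor, the site had 9.49 ± 2.27, 6.69 ± 1.66 and 5.5 ± 0.93 tags, and it was called lower in Pax5-/- under the authors' scaling alone (adjusted p = 0.047, and 0.71 with TMM). Without WT library #1 (0.068) or #3 (0.22), Ebf1-/- library #2 (0.054) or Pax5-/- library #2 (0.17) or #3 (0.075) that call was lost. Zap70 RNA was 0.276 ± 0.247, 91.6 ± 21.6 and 33 ± 9.5 reads per 10 M.

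**Figure D3:**
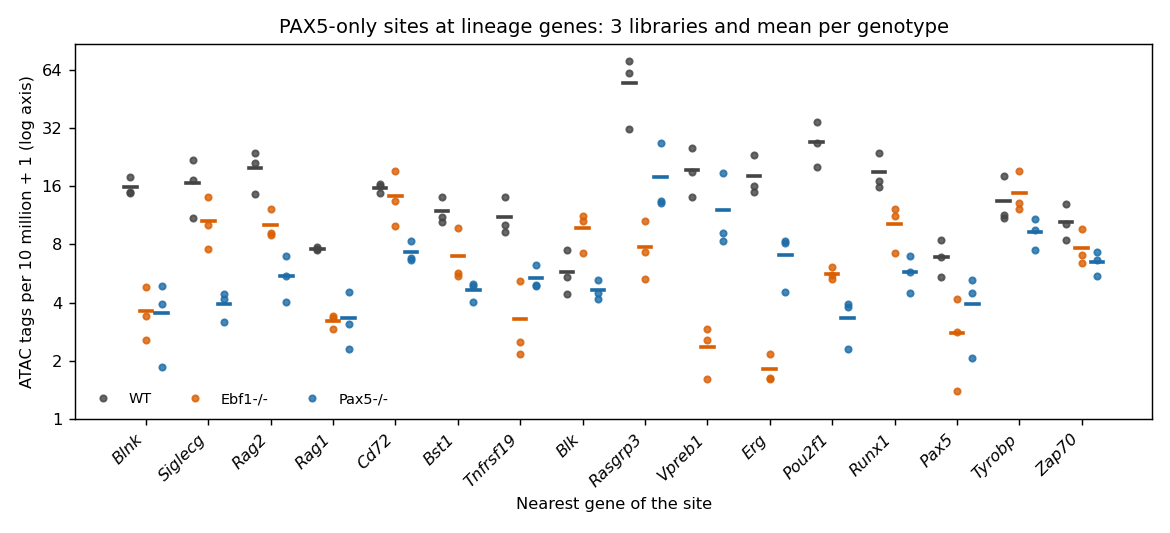
ATAC signal (tags per 10 M + 1, log axis) at the site of each of 16 lineage genes: points are the 3 libraries of each genotype and short lines their means. Blnk is low in both knockouts, Siglecg and Rag2 lowest in Pax5-/-, and Vpreb1, Erg and Rasgrp3 lowest in Ebf1-/-.

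Of the 6 largest falls in Pax5-/-, 5 were near genes outside these lists. Sorbs2, which encodes an adaptor of the actin cytoskeleton, had 34.6, 19.9 and 25.6 tags in WT, 1.95, 2.12 and 1.28 in Ebf1-/- and 0.71, 0.80 and 4.34 in Pax5-/- (relative difference -2.67 ± 0.34 in Pax5-/-). Its RNA fell with the site, from 10.3 ± 2.72 reads per 10 M to 0.183 ± 0.318 and 0.037 ± 0.065. Mtcl1, which encodes a microtubule crosslinking factor, went from 47.3 ± 10.1 tags in WT to 5.80 ± 1.73 and 6.09 ± 0.44, and its RNA from 113 ± 14.6 to 0.057 ± 0.099 and 0.17 ± 0.15. At Slc7a9, which encodes an amino acid transporter, signal went from 21.2 ± 6.53 to 2.01 ± 0.53 and 1.05 ± 0.25, and at the site in an intron of Rab27b, a vesicle transport GTPase, from 39.6 ± 12.3 to 4.07 ± 1.47 and 2.99 ± 0.57. RNA of both was under 4 reads per 10 M on average in each genotype and was not tested. E330017A01Rik, with 14.7 ± 2.70 tags in WT, 1.22 ± 0.06 in Ebf1-/- and 1.34 ± 0.73 in Pax5-/-, is listed at 0 RNA in all 9 libraries.

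The site at the non-coding gene 1700027J07Rik had the largest relative fall of the sites in Ebf1-/-. It went from 24.8, 18.2 and 15.5 tags in WT to 0.39, 1.21 and 0.32 in Ebf1-/- (relative difference -2.88 ± 0.34, limma adjusted p = 3.0e-16), with 2.12, 2.65 and 6.08 in Pax5-/-. Its RNA followed, at 126 ± 18.9, 0.149 ± 0.139 and 10.6 ± 1.87 reads per 10 M.

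The largest rises in Ebf1-/- came next to genes of varied function. At the intronic site of Eef2k, which encodes the kinase of translation elongation factor 2, signal was 19.6, 7.98 and 16.8 in WT, 45.6, 46.0 and 54.1 in Ebf1-/- and 12.7, 9.81 and 8.25 in Pax5-/-. The relative difference in Ebf1-/- was 2.51 ± 0.27 against WT (limma adjusted p = 3.6e-08) and 2.18 ± 0.27 against Pax5-/- (3.9e-10), the largest rise of the sites in that comparison. Eef2k RNA was 369 ± 7.48, 458 ± 24.5 and 332 ± 39.4 reads per 10 M, so it changed much less than the site did. For RNA in Ebf1-/- against WT the adjusted p was 0.060, 0.0077 with the replicate number as a block and 0.038 without Pax5-/- library #3. The Dhrs9 promoter, of a retinol dehydrogenase gene, had 13.7, 5.70 and 10.9 tags in WT, 36.2, 45.7 and 44.5 in Ebf1-/- and 17.6, 11.1 and 10.4 in Pax5-/- (2.81 ± 0.27 against WT, 3.8e-10). Its RNA did not exceed 0.825 reads per 10 M in any library. Pik3r4, a regulatory subunit of the class III phosphoinositide kinase, went from 13.6 ± 2.9 to 25.4 ± 4.16 in Ebf1-/- with 11.5 ± 2.24 in Pax5-/-, and Rffl, a ubiquitin ligase gene, from 6.32 ± 2.5 to 12.8 ± 2.42 with 6.96 ± 1.51. Gm10432 was higher in both, at 8.27 ± 1.89 in WT, 18.2 ± 2.97 in Ebf1-/- and 14 ± 1.95 in Pax5-/- (limma adjusted p = 4.7e-04 and 0.021), although the call in Pax5-/- was lost without WT library #3 (0.089) or Pax5-/- library #3 (0.091).

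Chchd5, which encodes a mitochondrial protein, had 2 sites with different values. The site 30 bp upstream of the start site rose from 7.19, 6.27 and 5.70 tags in WT to 12.9, 23.6 and 18.9 in Ebf1-/- and was at 7.41, 6.89 and 6.52 in Pax5-/-. The site 791 bp downstream, in an exon and named after its values were seen, fell from 10.5, 9.97 and 11.4 to 4.67, 3.93 and 3.52 in Ebf1-/- and 1.41, 2.12 and 1.30 in Pax5-/-. In Pax5-/- the relative differences were 0.85 ± 0.28 and -1.42 ± 0.33. Chchd5 RNA was 12.9 ± 6.4, 44.4 ± 2.51 and 29.6 ± 5.52 reads per 10 M. The fall in Ebf1-/- was called under the authors' scaling alone (adjusted p = 0.0011, and 0.28 with TMM).

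The 4 sites with the highest WT signal were at Cox7c, Alkbh8, Itga4 and Rasgrp3. Cox7c encodes a subunit of cytochrome c oxidase, and its promoter had 89.5, 43 and 72.8 tags in WT, 64.6, 81.4 and 91.9 in Ebf1-/- and 64.2, 45.3 and 34.3 in Pax5-/-, with the knockouts overlapping WT. Alkbh8, a tRNA-modifying enzyme gene, had 64.8 ± 23.6, 16 ± 3.87 and 24.2 ± 7.28. Itga4, which encodes integrin alpha 4, had 54.4 ± 14.9, 16.2 ± 5.29 and 10.8 ± 5.20 tags, while its RNA was 2419 ± 302, 6434 ± 1392 and 2905 ± 296, higher in Ebf1-/- (limma adjusted p = 4.5e-06). Under the authors' scaling the Cox7c site was called lower in neither knockout and the other 3 in both, and with TMM the call of Alkbh8 in Pax5-/- was lost (adjusted p = 0.079). Without WT library #2 or Pax5-/- library #1 the Cox7c site was called lower in Pax5-/- (0.0073 and 0.040), and with TMM it was called higher there (0.049).

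The other gene lists were matched by name and held few sites each, which does not measure how many sites lie near housekeeping genes. The sites at Cox7c, Cox17 and Ndufb8, of the respiratory chain and its assembly, were not called in either knockout under the authors' scaling, and in Ebf1-/- all 3 were higher with TMM. Among sites at genes of chromatin regulators (Arid3a, Kdm5a and Dnmt3aos, an antisense gene), none was called in Pax5-/- and 1 was higher in Ebf1-/-, and with TMM 2 of 3 were higher in Pax5-/- and 3 of 3 in Ebf1-/-. Of 3 sites at Ccnt1, Cdc42ep3 and Cdkl1, matched to the cell cycle list by name although Cdc42ep3 encodes a cytoskeletal effector, all were lower in Pax5-/- and 2 in Ebf1-/- (against 51.5% and 51.1% of all regions). With TMM 2 were lower in Pax5-/-, and in Ebf1-/- none was lower and 1 was higher. Cdkl1, a kinase gene, went from 16.9 ± 7.38 tags in WT to 6.42 ± 0.77 in Ebf1-/- and 3.37 ± 1.44 in Pax5-/-. Of 12 sites at genes named for signalling families, 6 were lower in Pax5-/- and 4 in Ebf1-/-, with 1 higher in Ebf1-/-, against the same 51.5% and 51.1% lower over all regions. With TMM 2 were lower and 2 higher in Pax5-/-, and 3 lower and 4 higher in Ebf1-/-. For all these lists, the TMM shares over all regions were 21.3% lower and 13.8% higher in Pax5-/-. In Ebf1-/- they were 29.7% and 20.4%, and 34% of the 376 sites were higher there.

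Signal was higher close to the start site. At the 128 sites within 200 bp the median was 15.5 tags per 10 M in WT, 11.5 in Ebf1-/- and 8.72 in Pax5-/-. At the 115 sites beyond that and up to 500 bp it was 8.96, 5.80 and 4.78, and at the 133 sites beyond it was 7.88, 4.82 and 3.92. The medians of Ebf1-/- lay between those of WT and Pax5-/- in each range. The median relative difference between the knockouts was 0.53, 0.29 and 0.24 in these ranges.

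**Figure D4:**
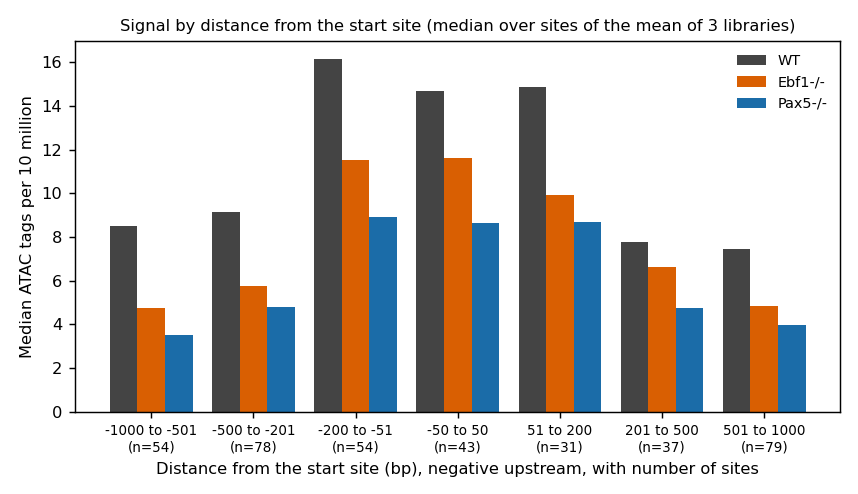
Median ATAC signal (tags per 10 M, mean of 3 libraries per site) of the 376 sites by distance from the start site, with WT, Ebf1-/- and Pax5-/- as bars. WT is highest and Pax5-/- lowest in each of the 7 ranges, and the ranges within 200 bp of the start site exceed the others in each genotype.

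Among the sites, those with few CpG and those with high peak scores were more often lower, as a description without a test. Of 86 sites with at most 4 CpG in the window, 20 were lower in Pax5-/- under both scalings and 18 in Ebf1-/-. Of 72 sites with 15 or more, 2 and 0 were. With TMM, 21.3% of all regions tested were lower in Pax5-/- and 29.7% in Ebf1-/-, not split by CpG or peak score. The contrast is thus among the sites and not with other bound regions. Distance goes with base composition: median CpG was 11 within 200 bp and 6 beyond 500 bp. By peak score, 23 of 94 sites in the highest quartile were lower in Pax5-/- under both scalings, against 5 of 95 in the lowest. Of 59 sites with the core, 5 were (median relative difference 0.01), and of 317 without it 49 (0.01). In Ebf1-/- the counts were 5 of 59 and 33 of 317. The displayed core windows at Ppp1r16b, Cap1, Fbxl12 and Tmem33 belong to sites that held 26.5, 36.6, 19.5 and 14.8 tags per 10 M in Pax5-/-.

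RNA of the nearest gene was tested for 321 genes of the 372 named at the sites. The median gene of all 12839 tested was 0.28 higher in Pax5-/- and 0.31 higher in Ebf1-/- than in WT under the authors' scaling, and RNA differences are given relative to it. In Pax5-/- 104 of 321 genes (32.4%) were called higher and 70 (21.8%) lower, against 34.7% and 11.9% of all genes. With TMM the counts were 76 and 110, against 25.9% and 24%. In Ebf1-/- 117 were higher (36.4%, against 40.8%) and 72 lower (22.4%, against 14.4%), and with TMM 100 and 121, against 30% and 28.1%. Between the knockouts, 75 genes were higher in Ebf1-/- (23.4%, against 17.5%) and 46 lower (14.3%, against 13.3%), and with TMM 84 (26.2%, against 20.5%) and 70 (21.8%, against 19.6%). With the replicate number as a block, which the RNA libraries share across genotypes, the lower genes became 70 (21.8%, against 19% of all genes) and the higher 99 (30.8%, against 24.8%). In Pax5-/- against WT the block gave 139 higher genes (43.3%, against 47.6% of all genes) and 80 lower (24.9%, against 15.3%). In Ebf1-/- it gave 155 higher (48.3%, against 51%) and 83 lower (25.9%, against 17.4%).

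In Pax5-/- 44 tested genes had a site lower under both scalings, and 24 of them were lower in RNA, 8 higher and 12 not called, with a median relative difference of -0.75. Over all 321 genes the median was -0.06. In Ebf1-/- 29 genes had such a site, of which 15 were lower in RNA and 3 higher, with a median of -1.58 against -0.04. With TMM on the RNA, 30 of the 44 genes were lower and 6 higher, and 19 of the 29 lower and 3 higher. Of 12 tested genes with a site higher in Ebf1-/- under both scalings, 7 were higher in RNA and 2 lower. With TMM on the RNA the counts were 6 and 4. Of all genes tested, 40.8% were higher in Ebf1-/- under the authors' scaling and 30% with TMM. All 6 tested genes with a site lower in Ebf1-/- than in Pax5-/- were lower in RNA too. Of 51 with a site higher in Ebf1-/- than in Pax5-/-, 19 were higher in RNA and 7 lower (18 and 10 with TMM). RNA was called higher by both RNA scalings at 6 genes whose site was lower in Pax5-/- under both (Adcy7, Chchd5, Dennd3, Ell3, Rasgrp3 and Runx1, listed after their values were seen). A gene with 2 sites was counted by the one with the higher WT signal, which for Chchd5 was the exon site. The Chchd5 site at -30 bp had a relative difference of 0.85 in Pax5-/-. The difference between these classes was not tested.

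**Figure D5:**
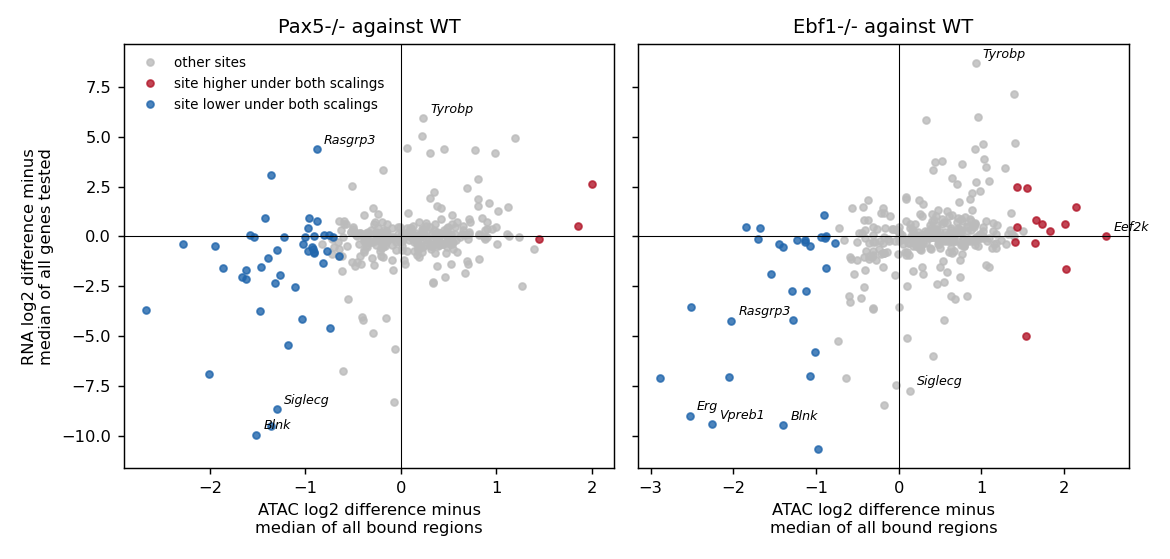
RNA log2 difference of the nearest gene (y axis, minus the median of all genes tested) against the ATAC log2 difference of the site (x axis, minus the median of all bound regions), for Pax5-/- against WT on the left and Ebf1-/- against WT on the right. Blue sites (lower under both scalings) include Blnk with a large fall of RNA in both panels, and Rasgrp3 lies above 0 on the left and below 0 on the right.

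Markers of other cells differed between the genotypes along with these results. The summed RNA of 10 T-cell markers was 33.5 to 43.7 reads per 10 M in the WT libraries, 633 to 701 in Ebf1-/- and 193 to 281 in Pax5-/-, with Cd3g at 0 in WT and Cd3e at 0 in Pax5-/-. That of 7 NK and innate lymphoid markers was 11.8 to 13.3, 1213 to 1240 and 124 to 196, with Ncr1 and Tbx21 at 0 in WT and Pax5-/-. For 7 myeloid markers it was 8.10 to 17.4, 1670 to 2178 and 1236 to 2263, with Elane at 0 in WT. For 3 dendritic markers it was 7.14 to 9.53, 2315 to 2683 and 946 to 1036, with Itgax at 0 in WT. Single genes made up much of these sums. Fcer1g was at 1455 ± 225 in Ebf1-/- and 1566 ± 530 in Pax5-/-, and Flt3 at 2361 ± 189 and 917 ± 46.3. Among the T-cell markers, Lck was at 216 ± 42.5 in Pax5-/-. Cebpa stayed at 0.861 ± 0.537 in Pax5-/-, and Lyz2 was lower in Ebf1-/- (1.97 ± 0.436) than in WT (4.39 ± 1.15). The 6 OP9 stroma markers summed to 44.9 to 197, 374 to 458 and 36.2 to 156, of which Pdgfrb made up 373 ± 65 in Ebf1-/-. Hepatocyte markers Alb, Apoa1 and Ttr were at 0 in all 9 libraries, and erythroid markers summed to 3.65 to 5.39, 19.1 to 31.9 and 2.85 to 6.51, with Hba-a1 at 0. Xist RNA was 45559 ± 3926 in Ebf1-/- but 28.4 ± 11.5 in WT and 19.8 ± 21 in Pax5-/-. Ddx3y, on the Y chromosome, was at 1.46 ± 1.16 in Ebf1-/-, 692 ± 71.3 in WT and 934 ± 194 in Pax5-/-. These are values of female cells in Ebf1-/- and of male cells in WT and Pax5-/-. Sex and genotype therefore cannot be told apart in RNA comparisons with Ebf1-/-. The sex of the ATAC libraries is not known from these values. On the X chromosome lie 6 of the sites. In bulk libraries a smaller share of cells with an open site and less opening per cell cannot be told apart. The part of these markers in the results was not tested.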

How the data were processed

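ATAC-seq (9 libraries) and RNA-seq (9 libraries) of fetal liver pro-B cells were assigned to genotypes from the sample titles, which also number the replicates. Per the file headers, the authors' ATAC signal is tags per region scaled to 10 M per library, and their RNA signal is exon reads per 10 M mapped reads. The submitters' processing notes name Bowtie2, TopHat, HOMER, edgeR and DESeq2 on mm10, with versions not given in the sources used here. The peak score and the other annotation values (distance to the start site, nearest gene) are as deposited by the authors. The table did not name the gene of 13 sites, of which 12 were named from RefSeq by transcript. Whole reads could be recovered from the library totals in the ATAC headers and from the low RNA values (100% of values within 0.1 of a whole read).

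Values were fitted as log2(value + 1) with limma 3.58.1 (R 4.3.3), 1 mean per genotype over 9 libraries and 2-sided tests, adjusted by Benjamini-Hochberg over 14365 regions (at least 10 reads in all libraries together) or 12839 genes (edgeR's filterByExpr), with a threshold of 0.05. The median site rested on 11 to 40 reads per library, which limits what single sites can show. Alternatives were TMM and quantile scaling, edgeR 4.0.16 and DESeq2 1.42.0 on recovered reads, other pseudocounts and filters, a replicate block and leaving out each library. For ATAC the count tools ran on the EBF1-only and PAX5-only tables, where edgeR called 2037 of 12836 regions higher and 2447 lower in Pax5-/- and 2932 and 3362 in Ebf1-/-. For genes it called 3350 higher and 3051 lower in Pax5-/- and 3809 and 3570 in Ebf1-/-. Same-numbered RNA libraries of different genotypes deviated together (r = 0.12 to 0.44 in 9 pairs), so their numbers pair them, as a finding from the data; same-numbered ATAC libraries did not (r = -0.05 to 0.11). Scripts were tested on simulated data. Sites named in the text are those at genes of the lineage lists, the 6 largest falls and rises in each knockout against WT with non-overlapping libraries and a mean of at least 10 in the higher group, the 4 highest in WT, and 1 per other list. The sites, lists and rule were chosen with earlier results of these data known. 1 site that the rule names and 1 marker are not reported here by name.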

Additional observations from a re-analysis of the deposited data

How the results depend on the processing

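The balance of calls against WT rests on the scaling, and the excess of sites higher in Ebf1-/- than in Pax5-/- did not. Lower calls in Pax5-/- numbered 201, and 54 with TMM, 48 with quantile normalization, 54 with edgeR and 42 with DESeq2. They numbered 103 among sites with a mean signal of at least 10 and 77 among the 128 within 200 bp. Counts for such smaller sets of sites are not comparable with those over all 376. Higher calls numbered 4, and 49, 83, 54, 30 and 1 in the same order, with 2 within 500 bp and 0 within 200 bp. In Ebf1-/- lower calls numbered 131, and 38, 27, 38, 33 and 47 in that order, with 82 within 500 bp and 36 within 200 bp. Higher calls numbered 16, and 128, 170, 137, 102, 8, 9 and 6. Of all 14365 regions, quantile normalization called 2714 lower and 3094 higher in Pax5-/-, and 3128 and 3780 in Ebf1-/-. DESeq2 called 1983 of 12836 regions lower and 1007 higher in Pax5-/-, and 2880 and 2142 in Ebf1-/-. Among 4276 regions with a mean of at least 10, 3004 were lower and 85 higher in Pax5-/-, and 1977 and 251 in Ebf1-/-. Between the knockouts the higher calls numbered 59, 91 with TMM and 31 among the 128 sites within 200 bp. The lower calls numbered 7, 2 at a mean of at least 10 and 3 within 200 bp. Higher calls outnumbered lower ones in every setting run. The median difference in Pax5-/- was -0.74, and -0.52 with a pseudocount of 5, 0.088 with TMM and 0.24 with quantile normalization; in Ebf1-/- it was -0.40, 0.37 and 0.54 (TMM, quantile), and between the knockouts 0.33, and 0.50 within 200 bp. Leaving out 1 library gave 156 to 222 lower and 2 to 5 higher calls in Pax5-/-, 103 to 141 and 9 to 19 in Ebf1-/-, and 25 to 79 higher and 6 to 7 lower between the knockouts, with medians of -0.87 to -0.63, -0.52 to -0.34 and 0.27 to 0.40. For RNA, lower calls in Pax5-/- were 70, and 110 with TMM, 114 with quantile normalization, 110 with edgeR and 111 with DESeq2, and higher calls 104, and 69 with quantile normalization. Lower calls in Ebf1-/- were 72, and 121, 116, 120 and 119, and between the knockouts 46, and 70 with TMM, 72 with edgeR and 70 with DESeq2. Leaving out 1 library gave 70 to 117 higher and 57 to 71 lower genes in Pax5-/-, 105 to 134 and 61 to 75 in Ebf1-/-, and 57 to 87 and 42 to 51 between the knockouts. With the replicate number as a block, ATAC calls were 201 lower and 4 higher in Pax5-/-, 131 and 15 in Ebf1-/-, and 57 higher and 7 lower between the knockouts; for RNA the block changed lower calls between the knockouts to 70 and added the calls of Rag2, Eef2k and Cox7c in Ebf1-/- and Alkbh8 in Pax5-/- against WT, and of Bst1 and Chchd5 between the knockouts, and changed no other call of a gene named in the report. At single sites, values relative to the median changed sign at Pax5 in Pax5-/- (-0.15, and 0.13 with the PAX5-only table alone, -0.36 to 0.26 without a library), Runx1 in Ebf1-/- (-0.12, and 0.038 with TMM, 0.051 with edgeR, 0.031 with DESeq2, -0.26 to 0.10 without a library), Vpreb1 in Pax5-/- (0.01, and -0.10 with a pseudocount of 5, -0.30 to 0.18 without a library), Bst1 in Ebf1-/- (-0.03, and 0.028 with a pseudocount of 0.5, 0.030 with the PAX5-only table alone, 0.10 with TMM, 0.24 with quantile normalization, 0.13 with edgeR, 0.12 with DESeq2, -0.29 to 0.15 without a library) and Zap70 in Pax5-/- (0.07, and -0.022 with edgeR, -0.032 to 0.23 without a library). The cause of these changes was not tested. At 11 to 40 reads per library at the median site, small differences at single sites were not detectable.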
